A study of Mus musculus with 12 samples.

Results

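The genes of the synaptic vesicle release machinery were followed in the cerebellum of newborn, juvenile and adolescent mice. The set holds 10 genes chosen by name, with earlier results of these data known. They were grouped by role into SNARE proteins (Snap25, Stx1a, Vamp1 and Vamp2), synaptotagmins (Syt1, Syt2 and Syt11) and other vesicle proteins (Syp, Syn1 and Syn2). All probe sets annotated to these genes were taken, which gave 12 of the 12488 probe sets on the array, for 9 of the 10 genes. No probe set carried the name of Syn1 in the annotation used. The signal filter, a mean signal of at least 20.1, was passed by 11 of the 12 probe sets and so by all 9 genes. Left out was the dimmer Vamp1 probe set 93653_r_at, at 1.4 to 17.9.

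RNA came from the cerebellum of Ts1Cje mice, which carry a segmental trisomy of chromosome 16 and are used as a model of Down syndrome, and of euploid controls. Both were sampled on postnatal days 0, 15 and 30, written P0, P15 and P30. Each genotype and stage was 1 RNA pool of 3 cerebella, except the euploid P30 pool of 2, and each pool was hybridised to 2 Affymetrix arrays, for 6 pools and 12 arrays. Sex, strain background and litter of the animals were not given in the sources used here. None of the 10 genes lies on chromosome 16.

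A synaptic vesicle fuses with the plasma membrane when its SNARE, a VAMP or synaptobrevin, zips together with syntaxin and SNAP-25 on the target membrane. Synaptotagmins on the vesicle bind calcium and trigger this step, while synaptophysin and the synapsins belong to the vesicle membrane and its surface. In the postnatal rodent cerebellum granule cells are born and migrate, and parallel and climbing fibres form synapses on Purkinje cells.

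Median signal per array was 30.4 to 36.2. The control transcripts, whose 3' to 5' ratio rises when RNA is degraded, gave ratios of 0.841 to 1.07 (GAPDH) and 1.13 to 1.67 (actin, highest in the Ts1Cje P30 pool). Arrays of the same pool correlated with a median Pearson r of 0.972 over 7453 tested probe sets (6 pairs). Markers of cerebellar cells were read at every stage. Granule cell genes had a summed signal of 2886 to 3331 at P0 and 7726 to 10672 later, and Purkinje cell genes 1258 to 1688 at P0 and 6920 to 9577 later. Most of the granule cell sum at P0 was 1 gene, Zic1, at 2042.5 to 2563.8. Xist, which is transcribed from the inactive X in females, read 106 and 77.6 in the Ts1Cje P15 arrays and at most 6.7 in the others. Of the measured members, Syp lies on the X chromosome. The part of sex in differences that use the Ts1Cje P15 pool was not tested.

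The upstream sequences of 4 members are given here, chosen by their signals among the genes with a promoter entry. Stx1a was the member that fell with age, and Vamp1 and Syt2 gained on their paralogues. Syt11 with Vamp1 was furthest below euploid in the newborn Ts1Cje pool. Snap25, which also rose and gained on its paralogue, had no entry. RefSeq promoter entries (build GRCm38.p6) matched 8 of the 10 genes, all but Snap25 and Vamp2, with 11 start sites. Each line is the 250 bases before an annotated start, 5′ to 3′ on the gene's strand. Capitals mark matches on either strand to the GC box GGGCGG and its reverse complement, to the CRE core, spelled TGACG, and to the TATA box, spelled TATAAA. The windows are chr5:135023232-135023481 for Stx1a (plus strand), chr6:125215331-125215580 for Vamp1 (plus strand), chr1:134646362-134646611 and chr1:134709050-134709299 for the upstream and downstream starts of Syt2 (plus strand), and chr3:88772600-88772849 for Syt11 (minus strand).
Stx1a: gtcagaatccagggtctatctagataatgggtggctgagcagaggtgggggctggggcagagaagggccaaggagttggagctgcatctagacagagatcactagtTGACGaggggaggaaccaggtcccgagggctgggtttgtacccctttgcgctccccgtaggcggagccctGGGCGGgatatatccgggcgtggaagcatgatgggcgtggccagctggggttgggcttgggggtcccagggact
Vamp1: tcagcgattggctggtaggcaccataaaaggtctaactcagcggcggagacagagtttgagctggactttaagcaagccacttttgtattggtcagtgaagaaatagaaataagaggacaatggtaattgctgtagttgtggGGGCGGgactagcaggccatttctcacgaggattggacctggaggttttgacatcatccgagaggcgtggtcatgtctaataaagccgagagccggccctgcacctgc
Syt2 upstream start: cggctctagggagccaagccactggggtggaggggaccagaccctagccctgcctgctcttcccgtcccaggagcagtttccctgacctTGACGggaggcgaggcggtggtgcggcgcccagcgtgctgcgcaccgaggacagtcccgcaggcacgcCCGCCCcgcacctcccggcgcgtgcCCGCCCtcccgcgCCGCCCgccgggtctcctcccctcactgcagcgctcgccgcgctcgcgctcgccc
Syt2 downstream start: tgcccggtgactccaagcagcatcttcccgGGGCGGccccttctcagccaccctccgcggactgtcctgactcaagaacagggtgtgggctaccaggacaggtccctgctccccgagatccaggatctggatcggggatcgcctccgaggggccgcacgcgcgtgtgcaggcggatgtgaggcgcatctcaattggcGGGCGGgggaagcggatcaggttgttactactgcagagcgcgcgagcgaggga
Syt11: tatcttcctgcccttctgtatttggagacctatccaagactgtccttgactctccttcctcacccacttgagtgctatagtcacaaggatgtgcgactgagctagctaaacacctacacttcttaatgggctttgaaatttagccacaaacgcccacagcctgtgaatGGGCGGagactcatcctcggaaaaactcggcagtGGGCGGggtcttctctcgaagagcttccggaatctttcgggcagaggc

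A GC box was present in 8 of the 11 member windows, from 7 of 8 genes, against 32.7% of 32851 mouse promoter windows of this length. The falling Stx1a and the rising Vamp1 and Syt2 all held it, with 1, 1 and, over both Syt2 starts, 5 matches. The CRE core was found in 3 of 11 windows against 17.8%, among them Stx1a and the upstream start of Syt2, and the full CRE TGACGTCA, which contains the core, in 1 of 11 against 1.55%. No member window held TATAAA, which occurred in 12.4% of all windows. The E-boxes CAGCTG and CAGATG were in 2 and 1 of 11 windows, against 13% and 14.4%. A match describes these letters and is no evidence of a bound site.

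**Figure D1:**
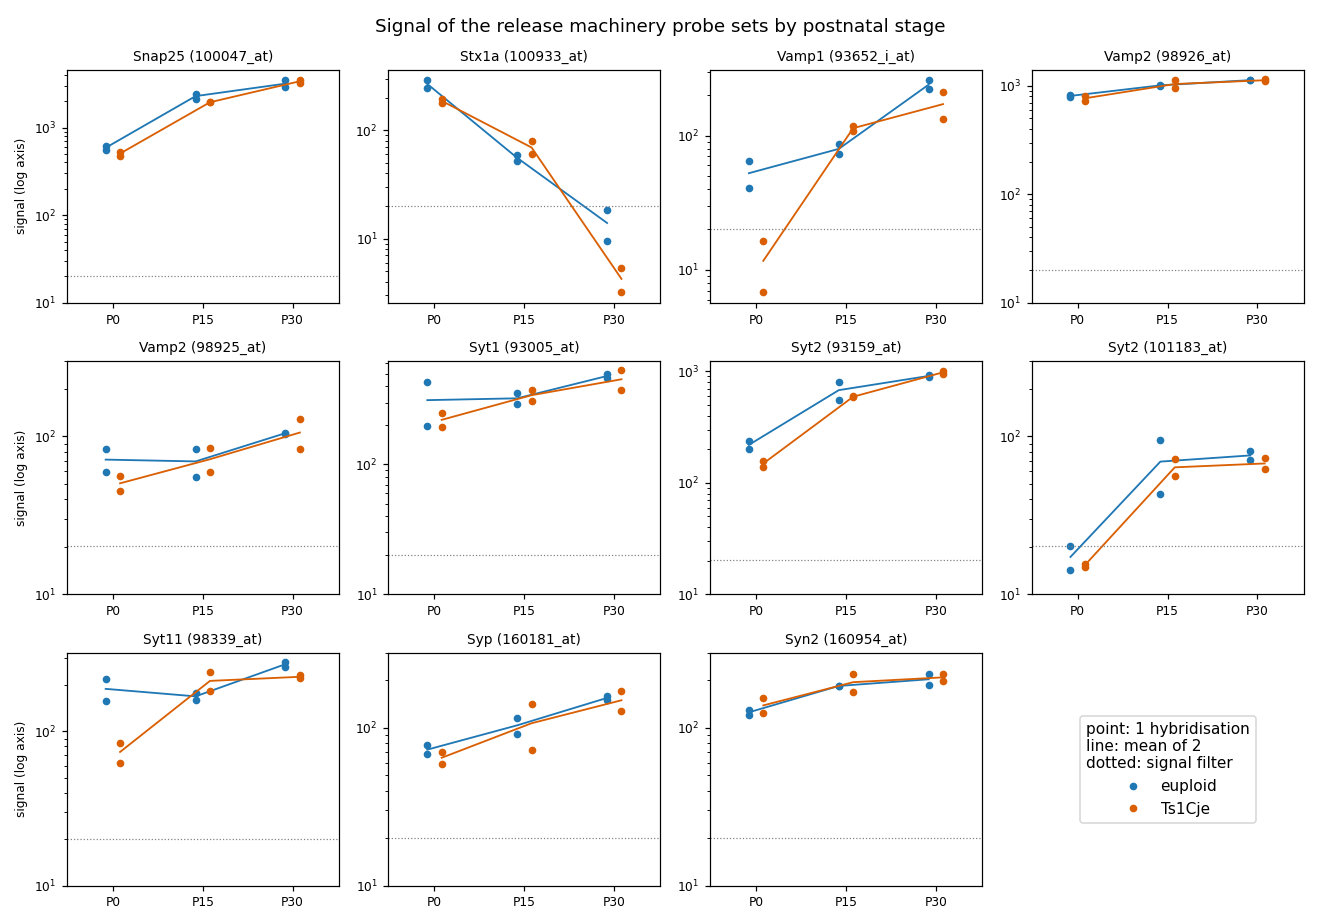
Signal (MAS5 units, log axis) of the 11 tested probe sets at P0, P15 and P30; points are single hybridisations, lines join pool means, blue is euploid, orange is Ts1Cje, and the dotted line is the signal filter of 20.1. Snap25 and Syt2 climb in both genotypes, Stx1a drops below the filter line by P30, and the Ts1Cje points of Vamp1 and Syt11 at P0 lie below those of euploid.

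Between P0 and P15 members of the release machinery moved in both directions. Snap25, Vamp1 and Syt2 rose more than 3-fold, Syp and Syn2 rose about 1.4-fold, and Stx1a fell 3.44-fold, while Vamp2, Syt1 and Syt11 did not pass the test. Counted by probe set, 6 of 11 were higher and 1 was lower at an adjusted p under 0.05 (limma, Benjamini-Hochberg over 7453 probe sets), against 13.6% and 14.4% of all tested probe sets. The member median was 0.55 on the log2 scale, against -0.03 over all probe sets. Because the members were chosen with earlier results of these data known, such comparisons with all probe sets are descriptive only. With the Ts1Cje P0 or the Ts1Cje P15 pool left out, 3 of the 6 rises were still called (Snap25 and both Syt2 probe sets), and with any other pool left out 4 of the 6, with Vamp1. Between P15 and P30 fewer steps passed: Snap25 was higher and Stx1a lower, 1 of 11 in each direction, against 1.61% and 3.13% of all probe sets, with a member median of 0.48 against 0.06.

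Markers of maturing cells moved over the same interval. From P0 to P15, 5 of 6 measured granule cell genes (median 2.85), 6 of 6 Purkinje cell genes (3.56) and 4 of 4 myelin genes (5.32) rose, and 6 of 6 genes of immature neurons and progenitors fell (median -1.46). Their part in the members' changes was not tested. In such bulk tissue, fewer cells of a type and less RNA per cell cannot be told apart.

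Snap25, the target-membrane SNARE of neuronal exocytosis, had euploid signals of 618 and 560.1 at P0, 2143 and 2435 at P15, and 3452 and 2907 at P30. Its Ts1Cje signals were 534 and 479 at P0, 1941 and 1956 at P15, and 3543 and 3229 at P30. No array of one stage overlapped an array of another stage. The log2 difference was 1.94 ± 0.13 (SE, 6 pools) from P0 to P15, or 3.85-fold (limma adjusted p = 3.848e-05). It was 0.63 ± 0.13, or 1.55-fold, from P15 to P30 (limma adjusted p = 0.0373). Each genotype showed the early step at nearly the same size, 1.95 in euploid and 1.94 in Ts1Cje. The later call was lost without the Ts1Cje P15 pool (limma adjusted p = 0.0719) or the Ts1Cje P30 pool (0.453), with hybridisation 2 alone (0.236), with no signal filter (0.0801) and with no trend in the fit (0.109).

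Stx1a encodes syntaxin 1A, the plasma membrane syntaxin of neurons. Euploid signals were 247 and 290.2 at P0, 58.9 and 52.5 at P15, and 18.4 and 9.5 at P30. In Ts1Cje they were 179.8 and 194.9, then 79.0 and 59.9, then 3.2 and 5.3. The stages were fully separated in both genotypes, and all 4 P30 arrays lay below the level used as signal filter. Stx1a fell by 1.78 ± 0.29 on the log2 scale from P0 to P15 (3.44-fold lower, limma adjusted p = 0.00247) and by 2.40 ± 0.29 from P15 to P30 (5.29-fold lower, limma adjusted p = 0.00451). Because the P30 values sit near background, the later size depends on the pseudocount of 4.6: the log2 difference was -1.18 with the 50th percentile of signals in its place and -2.875 with a pseudocount of 1, called in both.

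Vamp1, a vesicle SNARE prominent in hindbrain and spinal neurons, was read by probe set 93652_i_at, whose suffix marks a set with fewer probes than usual. In euploid pools its signals were 40.4 and 64.5 at P0, 86.8 and 72.4 at P15, and 221 and 259 at P30. The Ts1Cje pools gave 16.5 and 6.8, then 109 and 119, then 210 and 133.3. The lowest pair was thus Ts1Cje P0 and the highest was euploid P30. Vamp1 rose by 1.76 ± 0.44 (log2, SE, 6 pools), or 3.38-fold, from P0 to P15 (limma adjusted p = 0.0179), while the 2.06-fold step to P30 did not pass (1.04 ± 0.44, limma adjusted p = 0.213). The early difference was 0.59 in euploid and 2.93 in Ts1Cje on the log2 scale, the latter from P0 signals near background, and the fitted rise was 1.06 with the pseudocount at the 50th percentile. The call was lost without the Ts1Cje P0 pool (log2 0.84, limma adjusted p = 0.0936), without the Ts1Cje P15 pool (0.93, 0.0695) and with hybridisation 2 alone (0.0601). Conversely, the later step passed without the Ts1Cje P15 pool (log2 1.88, limma adjusted p = 0.00861), the euploid P0 pool (0.0368) or the Ts1Cje P0 pool (0.0372).

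Vamp2, the main vesicle SNARE of forebrain and most other synapses, had the smallest differences among the SNAREs. Its brighter probe set 98926_at read 789 and 826 in euploid and 813 and 720.3 in Ts1Cje at P0. At P15 it read 999 and 1021 in euploid and 949 and 1127 in Ts1Cje, and at P30 1122 and 1134 against 1101 and 1150.4. The difference from P0 to P15 was 0.38 ± 0.12, or 1.30-fold, which missed the threshold (limma adjusted p = 0.0544), with a 95% interval of 0.09 to 0.66, and passed under a stricter signal filter (0.0497) or quantile normalization (0.0435). With the 12 arrays entered as separate samples and hybridisation as a replicate block, the adjusted p was 0.00773. The dimmer probe set 98925_at, at 45.1 to 129 over all arrays, gave 0.21 ± 0.19 (limma adjusted p = 0.457) and then 0.56 ± 0.19 (0.135).

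Among the synaptotagmins, Syt2, the fast calcium sensor of hindbrain and inhibitory synapses, carried the change. Probe set 93159_at gave euploid signals of 237 and 200.4 at P0, 558 and 796 at P15, and 923 and 894 at P30. In Ts1Cje its signals were 157.9 and 139.9, then 587 and 595, then 944 and 1013. All P15 arrays exceeded all P0 arrays, and all P30 arrays exceeded all P15 arrays. The log2 difference from P0 to P15 was 1.78 ± 0.17, or 3.42-fold (limma adjusted p = 0.00021), and the dimmer probe set 101183_at gave 1.72 ± 0.19, or 3.30-fold (0.00034). From P15 to P30 neither probe set passed, with 0.58 ± 0.17 (limma adjusted p = 0.104) and 0.15 ± 0.19 (0.67). The brighter passed with hybridisation 1 alone (limma adjusted p = 0.0482) and with arrays as separate samples and the replicate block (0.0255). The rise of the dimmer from P0 to P15 was 0.98, still called, with the pseudocount at the 50th percentile.

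Syt1, the calcium sensor of fast release in forebrain, read 428 and 198 in euploid and 248 and 194 in Ts1Cje at P0. Its signals were 357 and 290.2 against 374 and 309 at P15, and 461 and 501 against 531 and 376 at P30. The P0 hybridisations of the euploid pool differed by more than the stages did, and arrays of P0 and P15 overlapped. Neither step passed, at 0.38 ± 0.16 (limma adjusted p = 0.114) and 0.48 ± 0.16 (0.135).

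Syt11, a synaptotagmin that lacks calcium binding, gave euploid signals of 157.7 and 219.9 at P0, 178 and 159.2 at P15, and 284 and 262 at P30. In Ts1Cje the signals were 84.4 and 62.9, then 184 and 242, then 232 and 220.5. Euploid P0 and P15 arrays overlapped, whereas the Ts1Cje P0 pair lay below every other array. The fit over both genotypes gave 0.67 ± 0.32 from P0 to P15 (limma adjusted p = 0.157) and 0.39 ± 0.32 to P30 (0.504). The early difference was -0.14 in euploid and 1.47 in Ts1Cje, and it was called without the euploid P0 pool (log2 1.33, limma adjusted p = 0.00643), the euploid P15 pool (1.22, 0.00845), or either P30 pool (0.67, 0.0478 and 0.0493).

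Syp encodes synaptophysin, an abundant vesicle membrane protein. Its signals at P0, P15 and P30 were 68.3 and 77.5, 116 and 92.0, and 151 and 160 in euploid, and 59.4 and 70.1, 142 and 72.7, and 127 and 172 in Ts1Cje. Apart from the second Ts1Cje P15 array, which fell within the P0 range, the P15 and P30 arrays were above all P0 arrays. In Ts1Cje the P15 and P30 arrays overlapped, with 142 at P15 above 127 at P30. Syp rose 1.46-fold from P0 to P15 (log2 0.55 ± 0.16, limma adjusted p = 0.0321), and the step to P30 was of like size without passing (0.54 ± 0.16, 0.0975).

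Syn2 encodes synapsin II, which tethers vesicles in the reserve pool. Euploid signals were 121 and 130.3 at P0, 183 and 186 at P15, and 219 and 188 at P30. Ts1Cje signals were 124 and 154.2, then 169.1 and 221, then 199 and 220. P0 arrays were below all later ones, which overlapped each other. Syn2 rose 1.42-fold from P0 to P15 (log2 0.51 ± 0.15, limma adjusted p = 0.0353) and differed little afterwards (0.12 ± 0.15, limma adjusted p = 0.659). The calls for Syp and Syn2 were each lost when any 1 of the 6 pools was left out, with limma adjusted p from 0.0633 to 0.131 and from 0.0820 to 0.130. The Syp call was also lost with hybridisation 2 alone (log2 0.14, limma adjusted p = 0.69) and with the replicate block (0.0507). For Syn2 it was lost with quantile normalization (limma adjusted p = 0.0529), with no trend (0.0531), and with hybridisation 1 (0.0503) or 2 (0.09997) alone.

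**Figure D2:**
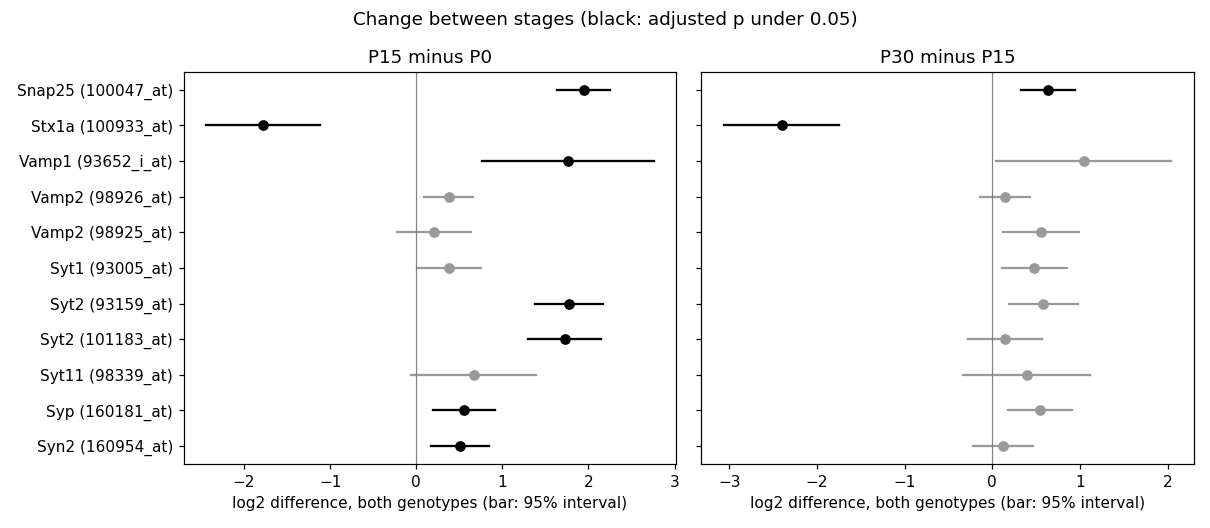
Log2 difference between consecutive stages for the 11 tested probe sets, fitted over both genotypes; points are limma estimates, bars 95% intervals, and black marks an adjusted p under 0.05. At P15 against P0, 6 probe sets are black to the right of 0 and Stx1a alone to the left; at P30 against P15 only Snap25 and Stx1a are black.

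Of 5 planned pairs of paralogues, 3 could be measured, and the shift of their log2 ratio with age was read in each genotype. Levels of different probe sets were not set against each other, so only the change of a ratio is given. The shifts were not tested with a model, and an exact permutation of 2 pools against 2 cannot give a p under 0.333.

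The Syt2 to Syt1 ratio moved early and alike in both genotypes. From P0 to P15 it shifted by 1.45 in euploid and 1.33 in Ts1Cje, a mean of 1.39 ± 0.084 (SD, n = 2 genotypes) or 2.63-fold. From P15 to P30 the shifts were -0.13 and 0.33, no larger than their spread. By P30 the mean shift since P0 was 1.496 ± 0.243 (SD, n = 2), or 2.82-fold in favour of Syt2.

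The Vamp1 to Vamp2 ratio moved the same way but on different schedules. In euploid it shifted by 0.27 from P0 to P15 and by 1.38 from P15 to P30. In Ts1Cje the order was reversed, with 2.50 first and 0.42 later. The mean shift from P0 to P30 was 2.28 ± 0.90 (SD, n = 2 genotypes), or 4.87-fold in favour of Vamp1. The early mean of 1.38 was smaller than its SD of 1.58, so the timing was not settled by these pools, and it was 0.69 with the pseudocount at the 50th percentile (1.42 from P0 to P30).

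Snap25 gained on Snap23, the SNAP-25 paralogue of non-neuronal secretion, by 1.54 in euploid and 1.03 in Ts1Cje from P0 to P15. The later shifts were 0.24 and 1.62. Over the whole interval the mean was 2.22 ± 0.61 (SD, n = 2 genotypes), or 4.65-fold. Snap23 was dim, with a mean signal of 26.7, and its part in the ratio is correspondingly imprecise.

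**Figure D3:**
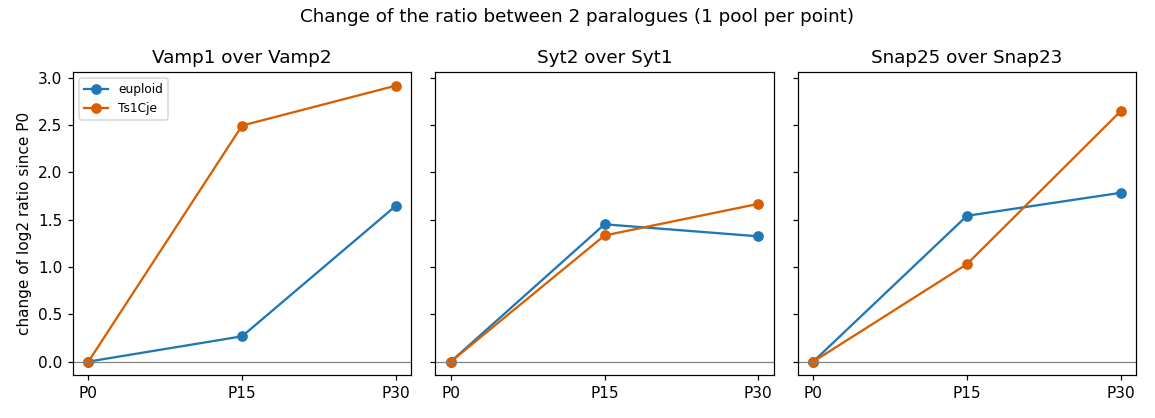
Change since P0 of the log2 ratio between paralogues (y axis) at P0, P15 and P30, for Vamp1 over Vamp2, Syt2 over Syt1 and Snap25 over Snap23; each point is 1 pool, euploid in blue and Ts1Cje in orange. All 3 ratios end above 0; the Syt lines stay close together, and at P15 the Vamp lines are at 0.27 in euploid and 2.50 in Ts1Cje.

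Over the 3 stages together, no member differed between genotypes at the threshold. The count was 0 of 11 (limma, adjusted p under 0.05) and 0% of all 7453 probe sets, of which 217 had an unadjusted p under 0.05, and no member was among these. The smallest unadjusted p of a member belonged to Stx1a, with a log2 difference of -0.42 ± 0.24 (limma adjusted p = 0.9999). The bright members were estimated most closely: the 95% interval of the Ts1Cje minus euploid difference was -0.37 to 0.13 for Snap25 and -0.25 to 0.22 for Vamp2 98926_at. Vamp1 had the widest, -1.43 to 0.20, around -0.62 ± 0.36. The member median was -0.14, against -0.0011 over all probe sets. With either P0 pool left out the values shrank to -0.0050 for Vamp1, 0.02 for Syt11 and -0.03 for Syt2 93159_at, while Stx1a stayed at -0.37.

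Stage by stage, the differences were largest in number at birth, when 10 of 11 member probe sets were lower in Ts1Cje at P0, against 47.6% of all probe sets. Within a stage there is 1 pool per genotype, so these are differences between 2 pools, with no test among animals. At P0 the hybridisations did not overlap for 6 of 11, all 6 lower in Ts1Cje, where 21.9% of all probe sets were lower and 22.4% higher without overlap. A difference of at least 1.5-fold without overlap was found for 2 of 11, both lower, against 3.54% of all probe sets higher and 3.86% lower. The member median was -0.40, against 0.02 over all probe sets.

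Vamp1 had the lowest value at P0, at -1.85 or 3.60-fold lower in Ts1Cje, with -1.09 and -2.60 from each hybridisation number alone. Its Ts1Cje signals of 16.5 and 6.8 are close to background, and with a pseudocount at the 50th percentile the value was -0.92. Syt11, well above background, was 2.46-fold lower (-1.30, with -0.87 and -1.73 by hybridisation). Smaller differences without overlap were -0.54 for Syt2 93159_at, -0.51 for Stx1a, -0.45 for Vamp2 98925_at and -0.22 for Snap25. The Vamp2 98925_at value came from -0.81 and -0.09 by hybridisation. The other probe sets of these genes overlapped, at -0.12 for the dimmer Syt2 101183_at and -0.08 for the brighter Vamp2 98926_at. For Syt1 the difference was -0.40 with overlapping arrays, and Syn2 was the member on the other side, at 0.13 with overlap.

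At P15, 4 of 11 were lower and 7 higher, where 49.1% of all probe sets were lower. The member median was 0.05, against 0.0057 over all probe sets. Vamp1 (0.49), Syt11 (0.31) and Stx1a (0.29) were above euploid without overlap and Snap25 (-0.23) below, so 3 and 1 of 11, against 21.0% and 18.5% of all probe sets. None reached 1.5-fold, against 3.21% of all probe sets higher and 1.95% lower. At P30, 8 of 11 were lower with a median of -0.06, where 50.1% of all probe sets were lower, and Stx1a was the 1 member past 1.5-fold, against 2.28% of all probe sets higher and 2.13% lower. Its difference of -1.04, or 2.05-fold lower, rested on signals of 18.4 and 9.5 against 3.2 and 5.3, all near background, and shrank to -0.32 with the pseudocount at the 50th percentile. Vamp1 (-0.50) and Syt11 (-0.27) were again below euploid without overlap, and Syt2 93159_at was slightly above (0.11). That makes 3 lower and 1 higher of 11 without overlap, against 19.8% and 19.6% of all probe sets.

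A model in which the genotype difference moves steadily with postnatal day called no member, 0 of 11, and 0% of all probe sets (limma, adjusted p under 0.05; 193 of 7453 at an unadjusted p under 0.05, none of them a member). Over 30 days the fitted change was 1.34 ± 0.71 for Vamp1, 1.03 ± 0.54 for Syt11 and 0.64 ± 0.35 for Syt2 93159_at, each with a limma adjusted p of 0.9997. The paralogue ratios differed between genotypes at P0 by -1.77 for Vamp1 over Vamp2, -0.13 for Syt2 over Syt1 and -0.0016 for Snap25 over Snap23. At P15 the same differences were 0.46, -0.25 and -0.51. By P30 they were -0.50, 0.21 and 0.86, the last with the dim Snap23.

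**Figure D4:**
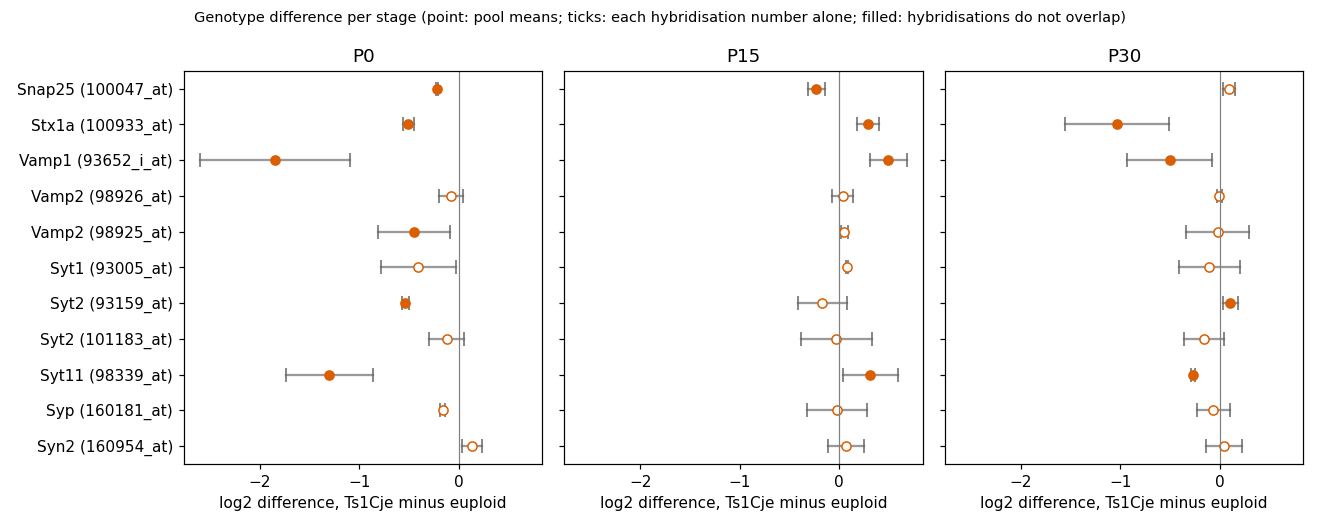
Ts1Cje minus euploid log2 difference at P0, P15 and P30 for the 11 tested probe sets; points are differences of pool means, ticks the value from each hybridisation number alone, and filled points mark hybridisations that do not overlap. At P0 Vamp1 (-1.85) and Syt11 (-1.30) lie furthest left and Syn2 alone right of 0, while at P15 points fall on both sides.

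Markers of other cells and regions also differed between the P0 pools. Hoxa5, a homeobox gene of caudal hindbrain and spinal cord, read 264 and 239.8 in euploid P0, 30.4 and 32.3 in Ts1Cje P0, and 10.4 to 30.5 in the other pools. Nefm, a neurofilament of large projection neurons, read 151.5 and 150.4 against 91.7 and 95.4. For the brainstem list as a whole, 8 of the 10 genes on the array passed the filter and 3 of these 8 were lower in Ts1Cje at P0 (median 0.15). Higher at P0 were Slc6a2 (0.90), Gata3 (0.75), Th (0.22), Glra1 (0.19) and Nefl (0.10). The summed signal of the list was 943 to 1005 in euploid and 774 to 783 in Ts1Cje at P0. On average this gap was smaller than that of Hoxa5 alone. A raw sum rests mostly on the brightest genes, and whether the pools differed in brainstem tissue was not tested. At P15, where 2 of 8 were lower (median 0.57), the sum was 518 to 587 in euploid against 813 to 841 in Ts1Cje. At P30 it was 693 to 767 against 609 to 701.

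In the choroid plexus and meninges list 2 of 7 genes were lower at P0, with Ttr, the transthyretin made by choroid plexus, at 357 and 361 against 142.9 and 137.1. The list's summed signal was nevertheless 2835 to 2922 in euploid and 3502 to 3943 in Ts1Cje. Microglial genes were lower in 4 of 4 at P0 (median -0.41, summed signal 323 to 335 against 239 to 245) and higher in 3 of 4 at P15 (median 0.46). All 3 blood genes were lower in Ts1Cje at every stage (medians -0.68, -1.40 and -0.66). Granule cell genes were lower in 1 of 6 at P0 (median 0.26) and in 6 of 6 at P15 (-0.42). Their summed signal at P0 was nevertheless not higher, at 3258 to 3331 in euploid and 2886 to 3267 in Ts1Cje. The brightest, Zic1, was lower at P0 (-0.19), and Gabra6 was at background, at 0.4 to 2.6. Purkinje cell genes were lower in 1 of 6 at P0 (median 0.20) and 4 of 6 at P15 (-0.27). For astrocytes and Bergmann glia it was 5 of 7 at P0 (-0.17) and 2 of 7 at P15 (0.10). Genes of immature neurons and progenitors were lower in 3 of 6 at P0 (-0.05) and 1 of 6 at P15 (0.38). Their summed signal at P15 was 3504 to 3667 in euploid and 4380 to 4551 in Ts1Cje. Myelin genes were lower in 3 of 4 at P0 (-0.12) and 2 of 4 at P15 (0.16). The part of these in the members' genotype differences was not tested.

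The wider release machinery also held both rises and falls. The list of 166 genes had 100 on the array and 88 past the filter, each read by its brightest probe set. From P0 to P15, 21 rose, 7 fell and 60 did not pass (limma, adjusted p under 0.05), which is 23.9% and 7.96% of the list against 14.4% and 14.2% of 5670 named genes. From P15 to P30, 0 rose and 4 fell, or 0% and 4.55% of the list against 1.69% and 3.30% of named genes. With a pool left out the 21 rises became 12 (without Ts1Cje P0) to 20, the 7 falls 4 (without euploid P0) to 10, and the 4 later falls 3 to 7 (without Ts1Cje P15).

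Among other SNAREs 3 of 20 rose and 2 fell from P0 to P15. At that step 14.4% of all named genes rose and 14.2% fell. Several of the counts by role, this one included, lay near these shares. Stx4a, a plasma membrane syntaxin, rose 2.66-fold (log2 1.41 ± 0.20, limma adjusted p = 0.00138), and Ykt6, an intracellular trafficking SNARE, fell by 0.89 ± 0.24 (0.0239). Of 11 regulators of SNARE assembly, 3 rose and none fell, with Cplx1, the complexin that clamps and promotes release, at 1.54 ± 0.25 or 2.90-fold (limma adjusted p = 0.0027) and Stxbp3, a Munc18 relative, at 1.15 ± 0.19 (0.00299).

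Synaptotagmin relatives split. Syt5 fell by 2.18 ± 0.21 (4.52-fold lower, limma adjusted p = 0.000205) from P0 to P15 and by a further 1.23 ± 0.21 to P30 (0.0211). Syt17 fell by 2.06 ± 0.26 at the early step (limma adjusted p = 0.00083). Both ended near background, Syt17 with P15 means of 10.1 in euploid and 11.9 in Ts1Cje, and Syt5 with P30 means of 13.4 and 10.9. Of the 7 measured, 1 rose, Esyt1 (0.66), which was outside the naming rule and chosen after its value was seen. Among 10 active zone and Rab3 genes 3 rose and 3 fell. Rab3b, a vesicle GTPase, fell by 2.26 ± 0.48 (limma adjusted p = 0.00856), and Unc13b, a Munc13 priming factor, by 1.08 ± 0.29 (0.0235). The Rab3b step was -3.50 in euploid, down to a P15 mean of 9.35 near background, and -1.02 in Ts1Cje. Unc13b was dim, with P15 means of 14.15 in euploid and 21.45 in Ts1Cje. Rab3d fell from P15 to P30 by 1.46 ± 0.19 (limma adjusted p = 0.00682).

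Genes of vesicle retrieval rose in 6 of 19 and fell in 0 of 19 from P0 to P15. Sh3gl2, endophilin A1, which bends membrane at the endocytic neck, rose 3.48-fold (log2 1.80 ± 0.20, limma adjusted p = 0.000386). The phosphoinositide phosphatase Synj2 rose by 1.37 ± 0.22 (limma adjusted p = 0.00224). From P15 to P30 the related Sh3gl3 fell by 1.65 ± 0.25 (limma adjusted p = 0.0117), and the other faller of this group was the scaffold Itsn1 (-0.84, 0.0218), which lies outside the naming rule for that step and was chosen after its value was seen. Subunits of the vesicle proton pump rose in 4 of 13, and other vesicle membrane proteins in 1 of 8, with none lower in either group.

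**Figure D5:**
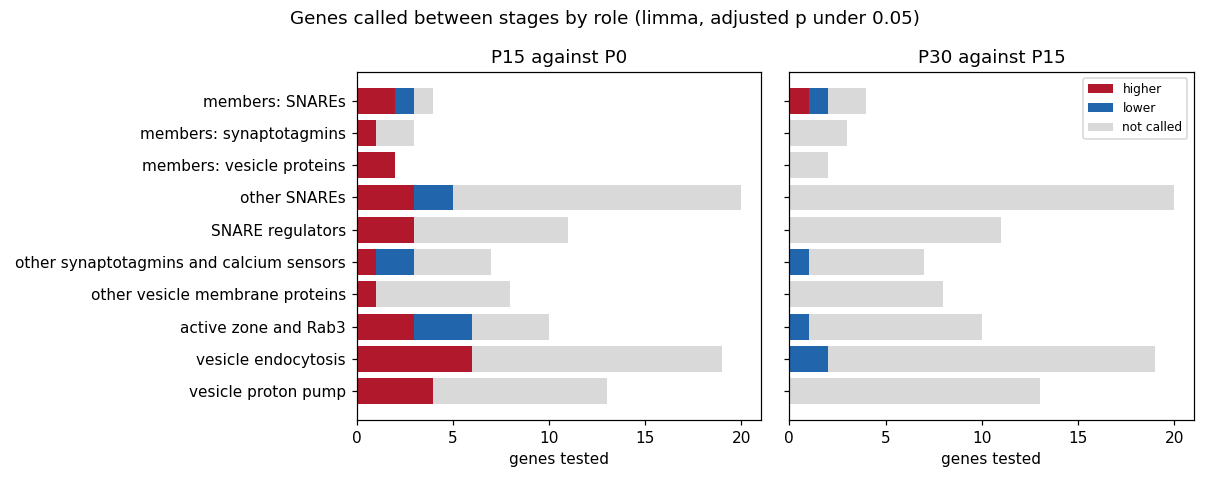
Number of genes (x axis) called higher (red), lower (blue) or not called (grey) by limma at an adjusted p under 0.05, by role, for P15 against P0 and P30 against P15. Rises at P15 include 6 of 19 endocytosis genes and 4 of 13 proton pump genes, beside 14.4% of all named genes. From P15 to P30 the only rise is among the member SNAREs, beside 1.69% of all named genes.

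No gene of the wider list passed the genotype test over the 3 stages. The genes with the smallest p among those of 1 direction at every stage were Itsn1, which lies in the trisomic segment (0.46 ± 0.12), Rab3a (0.55 ± 0.15) and Cplx2 (0.31 ± 0.14) on the higher side. Stx6 (-0.28 ± 0.13), Napa (-0.25 ± 0.12) and Pclo (-0.26 ± 0.13) were on the lower side, all at a limma adjusted p of 0.9999. At P0, 9 of 88 were lower by at least 1.5-fold without overlap and 1 was higher, or 10.2% and 1.14%, against 3.56% and 3.17% of named genes. The lowest was Cplx1 at -1.04, with 218 and 271 in euploid against 96.9 and 139 in Ts1Cje. Nsf, the ATPase that takes SNARE complexes apart, was at -0.59; both were picked here after their values were seen. At P15 the corresponding counts were 0 lower and 2 higher (2.27%), against 1.85% and 3.32% of named genes. At P30 they were 2 lower (2.27%) and 3 higher (3.41%), against 2.19% and 2.15%, so both stages lay near the background.

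Over the 6 pools the profiles most like each member, by Pearson's r of pool means among 5669 genes, were nearly collinear. For Snap25 they were Dao (0.9995) and Cerk (0.9994), for Stx1a Cul2 (0.9987) and Tuba1c (0.9986), and for Vamp1 Dnaja3 (0.9952) and Ppp3r1 (0.9951). Vamp2 lay closest to Tsc22d4 (0.9995) and Prnp (0.9991), Syt1 to Nsf (0.9977) and Mcfd2 (0.9971), and Syt2 to Aldoc (0.9994) and Gadd45b (0.9993). Syt11 had the loosest match, Krt33b (0.9921) and Kars (0.9887). Syp lay closest to Pip5k1b (0.9972) and Dcaf1 (0.9968), and Syn2 to Napb (0.9963) and Klhl21 (0.9955). With 6 points that share pools and 3 stages, such values describe these libraries only.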

How the data were processed

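RNA of cerebellum was measured on 12 Affymetrix arrays, 2 hybridisations of each of 6 RNA pools. Values are linear signal intensities deposited by the authors, made with MAS5 per the submitters' processing notes. Which version and scaling target they used is not given in the sources used here. Per the labels' protocols, RNA was extracted from individual cerebella, treated with DNase and pooled.

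Values were taken as log2(signal + 4.6), the pseudocount being the 20th percentile of all signals, so fold changes are on that scale and come out too small for dim probe sets. Left out were 66 controls and all probe sets with a mean signal under 20.1 (40th percentile), and 7453 were tested. Symbols came from the platform annotation (10855 probe sets with 1 symbol, 396 with several, 1237 with none), and lists were read by the brightest probe set of a gene. Hybridisations were averaged, so a pool was the replicate. Limma 3.58.1 in R 4.3.3 (lmFit, eBayes with a trend) fitted additive terms for genotype and stage (residual df 2, prior df 6.39). A model with genotype by postnatal day had residual df 1 and prior df 9.51. Tests were two-sided, with Benjamini-Hochberg adjustment over all 7453 and a threshold of 0.05; no p is given within a stage. Such p-values reflect only how far these pools scatter, which may be technical, and precision is limited by how few arrays there are. An exact permutation of genotype within stage cannot give a p under 0.25. Detection calls were not used here. The scripts were tested on simulated data.

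The members and lists were chosen with earlier results of these data known. Every member probe set is named. Of the wider list, named genes are the 5 largest called rises and falls from P0 to P15 and the 3 largest of each from P15 to P30 with 1 direction in both genotypes, and for genotype the 3 higher and 3 lower with the smallest p and 1 direction at all stages. For each member, the 2 genes with the highest Pearson r over pools are named. Alternatives were other pseudocounts, filters and normalizations, no trend, hybridisations as a replicate block, and leaving out a hybridisation or a pool. Plots used matplotlib 3.10.9 (python 3.11.15).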

Additional observations from a re-analysis of the deposited data

Results flagged for a closer look

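For 4 of the 11 member probe sets, the hybridisations of the Ts1Cje pool lay wholly below those of euploid at 1 stage and wholly above at another; over all 7453 probe sets this held for 1801, or 24.2%. These differences between stages were not tested, beyond the model of steady change with postnatal day, which called no probe set. Stx1a was below euploid at P0 (-0.505 on the log2 scale), above at P15 (0.286) and below at P30 (-1.035). Vamp1 gave -1.846, 0.493 and -0.503, and Syt11 -1.30, 0.314 and -0.267 at the same stages. Syt2 93159_at was below at P0 (-0.538) and above at P30 (0.106), with overlap at P15.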

How the results depend on the processing

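Snap25, Stx1a and both Syt2 probe sets at P15 against P0, and Stx1a at P30 against P15, kept their call under every alternative in which they were tested; Syt2 101183_at was not tested under the stricter filter, which dropped it. Counts over all probe sets moved more. The 353 calls from P15 to P30 became 199 with no filter, 183 with no trend and 898 with hybridisation as a replicate block, a fit that counts the 12 arrays as separate samples, and 98 to 746 when a hybridisation or pool was left out. The 0 genotype calls became 6 with the replicate block and 0 to 6 when a hybridisation or pool was left out, and the 0 calls for change with day 0 to 9 with 1 hybridisation. With the pseudocount at the 50th percentile, probe sets past 1.5-fold numbered 64 higher and 98 lower at P0, 79 and 44 at P15, and 39 and 43 at P30, against 264 and 288, 239 and 145, and 170 and 159; the early shift of Syt2 over Syt1 was 1.285 against 1.39, and that of Vamp1 over Vamp2 0.693 against 1.38. The cause was not tested.

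Counts of member and wider genes under these alternatives were added after seeing the data. From P0 to P15, 6 members higher became 3 to 5, Syt11 being a new call without some pools, and 21 wider genes higher 12 to 20 with a hybridisation or pool left out; 7 wider genes lower became 4 to 10, and 3 under the stricter filter. From P15 to P30, 1 member higher became 0 with no filter or no trend, 2 with the replicate block and 0 to 2 with a hybridisation or pool left out. In the wider list 0 higher became 4 with the block and 0 to 4 on leaving out, and 4 lower became 8 and 2 to 9.

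Directions turned only for values that had passed no test. With a hybridisation or pool left out, ranges crossing 0 were -0.027 to 0.441 for Vamp2 98925_at from P0 to P15 (lowest without Ts1Cje P0, and -0.0091 with hybridisation 2 alone), and from P15 to P30 -0.187 to 0.481 for Syt2 101183_at and -0.159 to 0.938 for Syt11. For genotype they were -0.039 to 0.016 for Vamp2 98926_at, -0.378 to 0.095 for Vamp2 98925_at (0.014 without a P0 pool), -0.783 to 0.024 for Syt11 and -0.075 to 0.235 for Syn2. For change with day they were -1.114 to 0.053 for Stx1a (0.125 with the 50th percentile pseudocount), -0.072 to 0.217 for Vamp2 98926_at, -0.378 to 0.981 for Syt1 and -0.046 to 0.243 for Syp. The model with day could not be fitted with a pool left out. Hybridisation numbers did not pair all samples: the correlation of deviations was 0.15 to 0.354 in the 6 pairs among P0 and P15 pools and 0.14 between the P30 pools, but -0.125 to 0.071 in the other 8 of 15 pairs. Quantile normalization and median centring moved the median genotype difference of all probe sets by under 0.02.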

Other observations

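Outside the member set, and chosen after their values were seen, genes of the active zone and Rab3 group differed between the pools of a stage. Rab3b, a vesicle GTPase, read 8.0 and 10.7 in euploid and 45.8 and 47.8 in Ts1Cje at P15, the euploid pair being near background, after 151 and 155 against 108 and 92.1 at P0. At P30 it was near background in both, at 4.1 and 6.3 against 12.2 and 11.9. Lin7b, a scaffold of the presynaptic membrane, read 37.5 and 15.6 against 69.4 and 62.9 at P15 and 57.1 and 52.3 against 36.4 and 9.8 at P30. Among proteins of the vesicle membrane, Syngr1, synaptogyrin, read 102 and 96.5 in euploid against 46.9 and 52.4 in Ts1Cje at P0. Each of these is 1 pool against 1 pool, with no test.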
